A study of Homo sapiens with 10 samples.

Results

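The nuclear respiratory chain genes encode proteins of complexes I to IV of the mitochondrial inner membrane and factors that build complexes I and II. They were taken by symbol from the protein-coding nuclear genes of the annotation: NDUFA, NDUFB, NDUFC, NDUFS, NDUFV and NDUFAF for complex I and its assembly, SDHA to SDHD and SDHAF for complex II and its assembly, UQCR for complex III, and COX4 to COX8 for complex IV. The rule found 82 genes of the 63152 gene identifiers in each expression table, and used no measured value. Of these, 40 were complex I subunits, 8 complex I assembly factors, 4 complex II subunits, 4 complex II assembly factors, 9 complex III subunits and 17 complex IV subunits. A count above 0 in at least 1 library was present for 79 of them.

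RNA was measured in C33A cells, a human cervical carcinoma line described as deficient in the SWI/SNF chromatin remodelling complex, 48 h after transient transfection by lipofection. The control group carried the empty plasmid pOPRSVI. BRG1-wt cells received pBJ5-BRG1, BRG1-mut cells pBJ5-BRG1-K798R, BRM-wt cells pCG-hBrm and BRM-mut cells pCG-hBrm-K798R, where K798R is a substitution that leaves the protein deficient in ATPase activity. Each group had 2 libraries of poly(A) RNA, and every group shared the culture medium, the transfection reagent and the harvest time. The expressed genes sat on plasmids, so their amount per cell was not that of an endogenous gene, and transfected and untransfected cells were sequenced together. Nothing in the labels said whether replicates came from separate cultures, so p-values measure only the spread between these libraries.

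The respiratory chain passes electrons from NADH through complex I, or from succinate through complex II, to ubiquinone, on to complex III and cytochrome c, and finally through complex IV to oxygen. Complexes I, III and IV pump protons as they do so, and the gradient drives ATP synthesis. Some subunits of complexes I, III and IV are encoded by mitochondrial DNA, whereas all 4 subunits of complex II come from the nucleus. Several complex IV subunits exist as a widely expressed isoform and as an isoform of muscle, lung or testis.

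The whole counts of each library were worked out from the deposited mean values and summed to between 30786236 and 43365343 per library. The labels do not say which of the 2 libraries of a group is which replicate in these means, so the deeper library of each group is called a and the shallower b. The transfected genes followed the labels, although SMARCA4 reads were present in every library. SMARCA4, which encodes BRG1, had 2497 to 4235 reads in the controls and 46527 to 65524 in the BRG1-wt and BRG1-mut libraries. SMARCA2, which encodes BRM, had 13 and 14 reads in the controls and 43748 to 222526 in the BRM-wt and BRM-mut libraries. Of the epithelial markers, KRT8 and KRT18 were present in every library, EPCAM was low, with at most 43 reads, and KRT19 reached at most 4 reads. The normalised counts of 5 epithelial markers summed to 233 and 412 in the controls and to 1960 and 2070 in BRG1-wt. They summed to 461 and 675 in BRG1-mut, 1240 and 2200 in BRM-wt, and 312 and 554 in BRM-mut, of which BRM-mut overlapped the controls and BRM-wt overlapped BRG1-wt. Among markers of blood cells, PTPRC was present at a normalised count of 1148 to 2038 in every library, while CD3E had no read and CD68 and LYZ had at most 9. The 4 fibroblast markers summed to between 147 and 521, and VWF and CDH5 reached at most 11 reads. The part of other cell types in the results was not tested. In RNA from whole cultures, fewer cells of a type and less RNA per cell cannot be told apart.

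The members differed in base composition, and their counts moved with it. Across the 74 members with a mean normalised count of at least 10, the GC content of the canonical transcript ran from 34.6 to 66.9%, with a median of 47.1%. A coding exon from each end of that range is shown with every G and C in capitals, read 5′ to 3′ on the transcript strand from GRCh37. The first is from NDUFB7, an accessory subunit of complex I, at chr19:14677577-14677745 on the minus strand, 169 bases with 63.9% GC. The second is from NDUFA5, another accessory subunit of complex I, at chr7:123190524-123190640 on the minus strand, 117 bases with 35% GC.
NDUFB7: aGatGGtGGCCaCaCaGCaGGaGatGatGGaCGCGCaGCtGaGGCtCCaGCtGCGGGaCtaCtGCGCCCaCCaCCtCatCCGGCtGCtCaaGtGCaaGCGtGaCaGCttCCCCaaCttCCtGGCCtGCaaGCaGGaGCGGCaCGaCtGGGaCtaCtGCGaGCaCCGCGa
NDUFA5: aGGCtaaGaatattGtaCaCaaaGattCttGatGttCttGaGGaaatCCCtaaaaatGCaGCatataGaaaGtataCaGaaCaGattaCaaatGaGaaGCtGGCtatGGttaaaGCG

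Normalised counts, that is counts divided by the size factor of the library, showed how far such genes differed between libraries of a single group. NDUFB7 was at 314 and 81.9 in the control libraries a and b, at 250 and 380 in BRG1-wt, at 1095 and 616 in BRG1-mut, at 35.8 and 842 in BRM-wt and at 258 and 39.2 in BRM-mut. The BRM-wt libraries thus held both the lowest and the second highest value of NDUFB7, and the range over 10 libraries was 30.6-fold. NDUFA5 was at 2729 and 3241 in the control, at 3141 and 2287 in BRG1-wt, at 2391 and 2750 in BRG1-mut, at 3426 and 2606 in BRM-wt and at 2908 and 3904 in BRM-mut. Its range was 1.71-fold, and the groups overlapped.

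**Figure D1:**
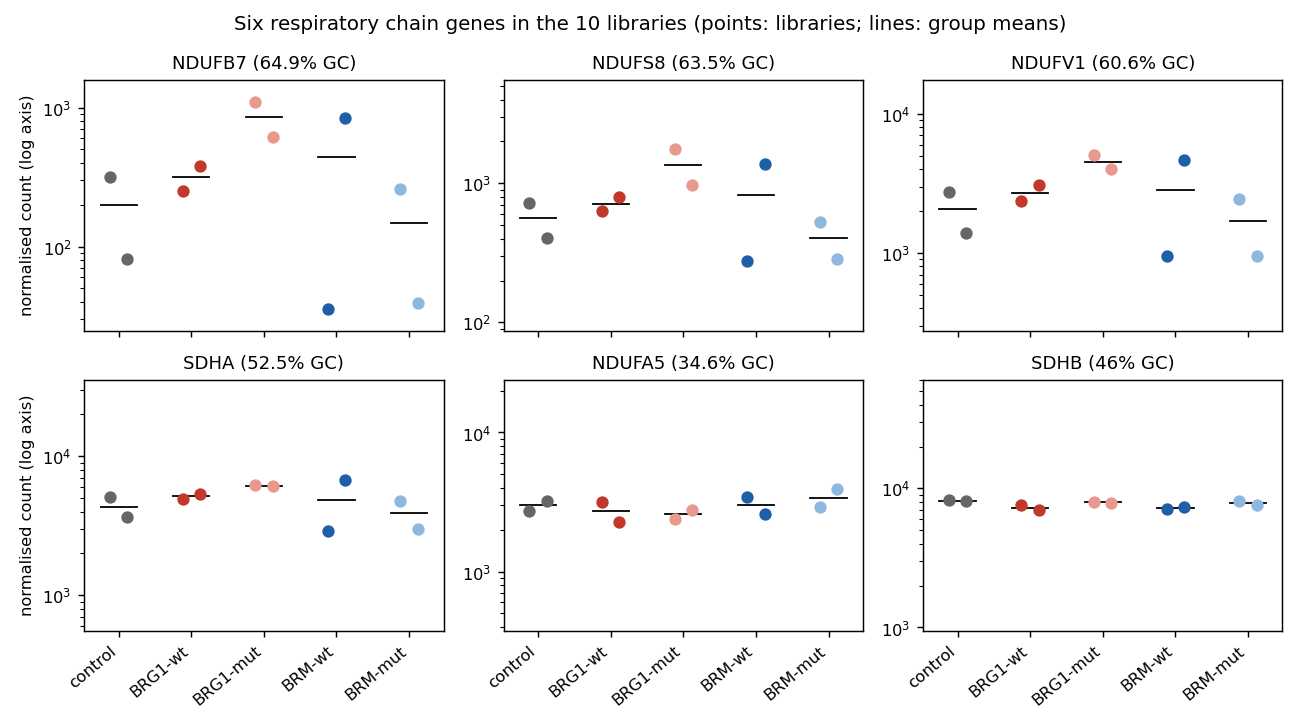
Normalised counts (log axis, every panel covering the same ratio) of 6 respiratory chain genes in the 5 groups, each point a library and each line the mean of 2 libraries. NDUFB7, NDUFS8, NDUFV1 and SDHA were highest in BRG1-mut or in BRM-wt library b and low in BRM-wt library a and BRM-mut library b, whereas NDUFA5 and SDHB varied 1.71-fold and 1.18-fold.

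The same order of libraries was seen over the GC-rich members as a group. For each library, the log2 deviation of a member from its mean over 10 libraries was taken, and its median given for the 16 members with at least 55% GC and the 28 with under 45%. GC-rich members were at 0.98 and 0.52 in the BRG1-mut libraries a and b, at 0.59 in BRM-wt library b and at 0.26 in BRG1-wt library b. They were at -1.15 in BRM-wt library a, -0.99 in BRM-mut library b and -0.44 in control library b. The remaining 3 libraries lay between -0.05 and 0.17. GC-poor members stayed between -0.15 and 0.13 in all 10 libraries. All expressed genes with at least 55% GC showed the same signs in these 7 libraries, with medians of 0.67, 0.39, 0.58, 0.27, -0.78, -0.86 and -0.42. Libraries of a single group stood apart in this measure, most of all the 2 BRM-wt libraries. The origin of the shift was not tested.

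Levels between genes were compared as the mean normalised count over 10 libraries per kb of merged exons. NDUFS5, an accessory subunit of complex I, was highest at 11114 ± 1449 (SD over 10 libraries). NDUFA1, a small complex I subunit, followed at 4851 ± 874, UQCRH, the hinge protein of complex III, at 3748 ± 336, COX6B1, a complex IV subunit on the intermembrane side, at 3419 ± 364, and SDHB, the iron-sulphur subunit of complex II, at 3147 ± 183. The last 3 lay within an SD or so of a neighbour in this order, while NDUFS5 stood above all others. UQCRH and UQCRHL are near-identical copies, so the split of reads between them is uncertain. Per kb of the canonical transcript NDUFS5 was again first, at 12304, followed by COX4I1, COX6B1, UQCRH and COX7A2.

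The medians per kb were 404 for 39 complex I subunits, 1360 for 4 complex II subunits, 1660 for 9 complex III subunits and 1130 for 15 complex IV subunits. Assembly factors were lower, with medians of 153 for complex I and 181 for complex II. Members of the same complex were far from equal. Genes counted with complex I by symbol ran from 3.46 per kb, for NDUFA4L2, a paralogue of NDUFA4, to 11100. Next above NDUFA4L2 in that class was NDUFA13 at 15.7 per kb. Some low values belonged to core or constitutive subunits. NDUFV2, a core subunit of the NADH-binding module, had a mean normalised count of 102, NDUFA7 of 29.2, NDUFA13 of 42.5 and NDUFB8 of 144. In the annotation used here, 28.4%, 32.5%, 21% and 48.5% of their exon bases are also exons of another listed gene, and reads there can go uncounted. Over both strands other members share as much and were not low, among them NDUFB2 at 35.9% with a mean of 1605, NDUFC1 at 31.5% with 1186, NDUFC2 at 21% with 1215 and COX8A at 35.4% with 613. On the same strand alone, the shares were 28.4% for NDUFV2, 32.5% for NDUFA7, 21% for NDUFA13 and 33.8% for NDUFB8. They were 1.44% for NDUFB2, 12% for NDUFC1, 18.6% for NDUFC2 and 35.4% for COX8A. Whether sharing lowered the counts was not tested. UQCR11, a small complex III subunit, was also low, at 9.9 ± 5.24 per kb.

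**Figure D2:**
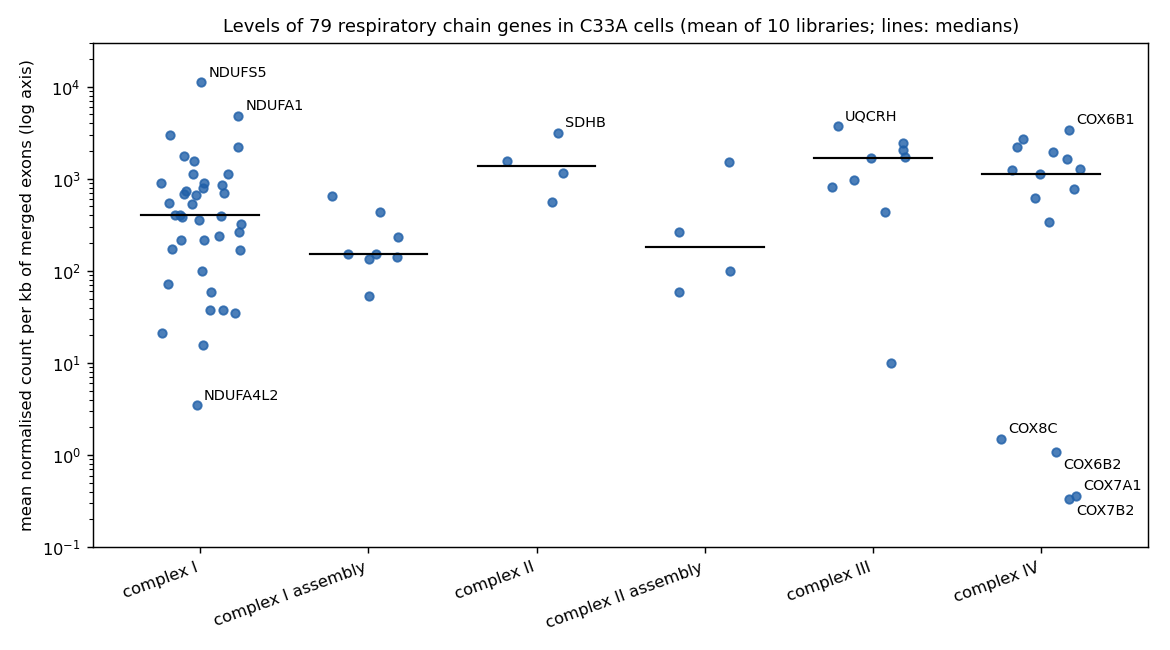
Mean normalised count over 10 libraries per kb of merged exons (log axis) for the 79 members above 0, by complex, with the median of each class as a line. NDUFS5, NDUFA1, UQCRH, COX6B1 and SDHB were highest, and the 5 lowest were NDUFA4L2 and the complex IV isoforms COX8C, COX6B2, COX7A1 and COX7B2.

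C33A cells expressed the common isoform of every complex IV pair examined. COX4I1, the common form of the largest nuclear-encoded complex IV subunit, had 5748 to 10752 reads per library, and COX4I2, the lung form, had none. COX6A1 had 279 to 860 reads, and its heart and muscle counterpart COX6A2 had none. A count of 0 allows up to 3 reads in a library, which is 0.0692 to 0.0974 CPM here and covers counting error only. COX6B1 had 3870 to 6068 reads against 0 to 10 for the testis form COX6B2. COX7A2 had 2948 to 5359 reads against at most 1 for the muscle form COX7A1. COX8A had 171 to 1503 reads against at most 3 for COX8C. NDUFA4, counted with complex I by its symbol but now placed in complex IV, had 2090 to 3941 reads, and NDUFA4L2, a hypoxia-induced paralogue, had 0 to 18. NDUFC2-KCTD14, a read-through gene with 99.6% of its exon bases in exons of other genes, had none.

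The question of the expression tables was whether either ATPase, or its mutant, changed these transcripts. Each comparison was fitted with limma on log2(normalised count + 1) over all genes with a mean of at least 10, and p-values were adjusted over all genes tested by Benjamini-Hochberg. The authors' own expression analysis, not used here, listed NDUFS8 and NDUFV1 as changed in BRG1-mut. In the present fits no respiratory chain gene passed an adjusted p of 0.05 in any of the 6 comparisons. That held both with limma's trend and with voom weights. The absence of calls depended on single libraries, since members passed in BRG1-wt and in BRG1-mut, all higher, when control library a was left out. The shares of members called higher were above those of all genes in the same fits. For BRG1-wt against BRG1-mut, members also passed, all lower, without BRG1-wt library b or either BRG1-mut library. Genes outside the list were called lower in those fits too, at a smaller share than the members in each. A lone library was assumed to vary like the other group. The median log2 fold change of the members was -0.07 without BRG1-wt library b, -0.05 without BRG1-mut library a and -0.20 without BRG1-mut library b. That of all genes was -0.01, -0.04 and -0.02. Scaling by the upper quartile turned the sign of the members' median in every comparison but BRM-wt against the control, and it also moved the median of all genes. The numbers of members with an unadjusted p under 0.05 were 0 of 75 in BRG1-wt, 18 of 75 in BRG1-mut, 0 of 74 in BRM-wt and 0 of 74 in BRM-mut, each against the control. They were 16 of 75 for BRG1-wt against BRG1-mut and 0 of 74 for BRM-wt against BRM-mut. The 18 members were 24% of those tested in BRG1-mut, where 16.1% of all genes had such a p, and the 16 were 21.3% beside 19.1% of all genes. In the other 4 comparisons 6.46% (BRG1-wt), 2.4% (BRM-wt), 0.381% (BRM-mut) and 2.28% (BRM-wt against BRM-mut) of all genes had such a p. Few genes of any kind passed with all libraries. In BRG1-wt 0.472% of all tested genes were called higher and 0% lower, in BRG1-mut 0% and 0%, in BRM-wt 0% and 0%, and in BRM-mut 0.00615% and 0%. For BRG1-wt against BRG1-mut the shares were 0.841% and 0.0481%, and for BRM-wt against BRM-mut 0% and 0%. These counts over all genes moved with single libraries as well, from 78 higher in BRG1-wt to 2301 without control library a, 401 without control library b and 19 without BRG1-wt library b. Of the transfected genes, SMARCA4 passed in BRG1-wt at a log2 fold change of 3.87 ± 0.21 with a limma adjusted p of 0.0126, and SMARCA2 passed in BRM-mut at 13.23 ± 0.32 with 0.00642. SMARCA4 in BRG1-mut, at 4.13 ± 0.23 with a limma adjusted p of 0.105, and SMARCA2 in BRM-wt, at 12.77 ± 0.63 with 0.184, did not pass.

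In BRG1-wt, 51 of 75 members had a log2 fold change above 0, with a median of 0.07 against 0.01 for all genes. Here and below, largest and smallest are meant among members with a mean normalised count of at least 100. The 3 largest were NDUFB7 at 0.94 ± 0.62, NDUFA11, a complex I subunit of the membrane arm, at 0.70 ± 0.37, and NDUFAF3, a complex I assembly factor, at 0.49 ± 0.27 (SE, n = 2 against 2). NDUFA13, below that mean, was at 0.69 ± 0.33. NDUFA11 was at 140 and 68.4 in the control and at 163 and 157 in BRG1-wt, and both BRG1-wt libraries were above both control libraries. NDUFAF3 was at 274 and 180 in the control and at 281 and 350 in BRG1-wt. The smallest were NDUFAF5, another complex I assembly factor, at -0.25 ± 0.14, SDHAF3 at -0.24 ± 0.12, and SDHD, a membrane anchor of complex II, at -0.18 ± 0.11. All had a limma adjusted p of 0.783. NDUFAF5 was at 1040 and 1096 in the control and at 964 and 831 in BRG1-wt, which did not overlap. The 95% interval of the log2 fold change lay within a 2-fold change either way for 64 of 75 members.

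BRG1-mut gave the widest range, from -0.21 to 2.35. The median was 0.17 against -0.01 for all genes, and 47 of 75 members were above 0. The largest changes were NDUFB7 at 2.35 ± 0.67, NDUFS7, a core subunit with an iron-sulphur centre, at 1.58 ± 0.36, and NDUFA11 at 1.52 ± 0.38, each with a limma adjusted p of 0.293. NDUFS7 was at 246 and 134 in the control and at 667 and 447 in BRG1-mut. NDUFV1, the core subunit that binds NADH and FMN, was at 2757 and 1402 in the control and at 5104 and 3996 in BRG1-mut, a log2 fold change of 1.2 ± 0.33. For all 4 genes both BRG1-mut libraries were above both control libraries. The smallest changes were NDUFA5 at -0.21 ± 0.13, NDUFS1, the largest core subunit of complex I, at -0.18 ± 0.10, and NDUFAF6, an assembly factor, at -0.18 ± 0.15. NDUFS1 was at 9350 and 10304 in the control and at 8340 and 9023 in BRG1-mut. By class, the median log2 fold change was 0.40 for the 4 complex II assembly factors, among which SDHAF2 was at 0.92 ± 0.24 and SDHAF3 at -0.13 ± 0.10, 0.30 for 39 complex I subunits, 0.26 for complex III, 0.16 for 11 complex IV subunits, -0.03 for complex II and -0.03 for the complex I assembly factors.

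These values moved with GC content. Across 75 members the Spearman correlation of the BRG1-mut log2 fold change with GC content was 0.73, and across 15971 genes it was 0.74. Genes of a library share its preparation and depth, so the correlation is a description. The 17 GC-rich members had a median of 0.81 and the 28 GC-poor members one of -0.05, against 0.67 and -0.16 for all genes of the same composition. Transcript length moved with it as well. The 42 members shorter than 1000 bases had a median of 0.34 and the 33 longer ones -0.02, against 0.08 and -0.02 for all genes. With the median of genes in the same GC bin taken off each fold change, the median of the members was 0.13, 60 of 75 were above 0, and none passed the test. For cytosolic ribosomal protein genes, another set of short and highly expressed transcripts, the uncorrected median was 0.21 and 64 of 77 were above 0.

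**Figure D3:**
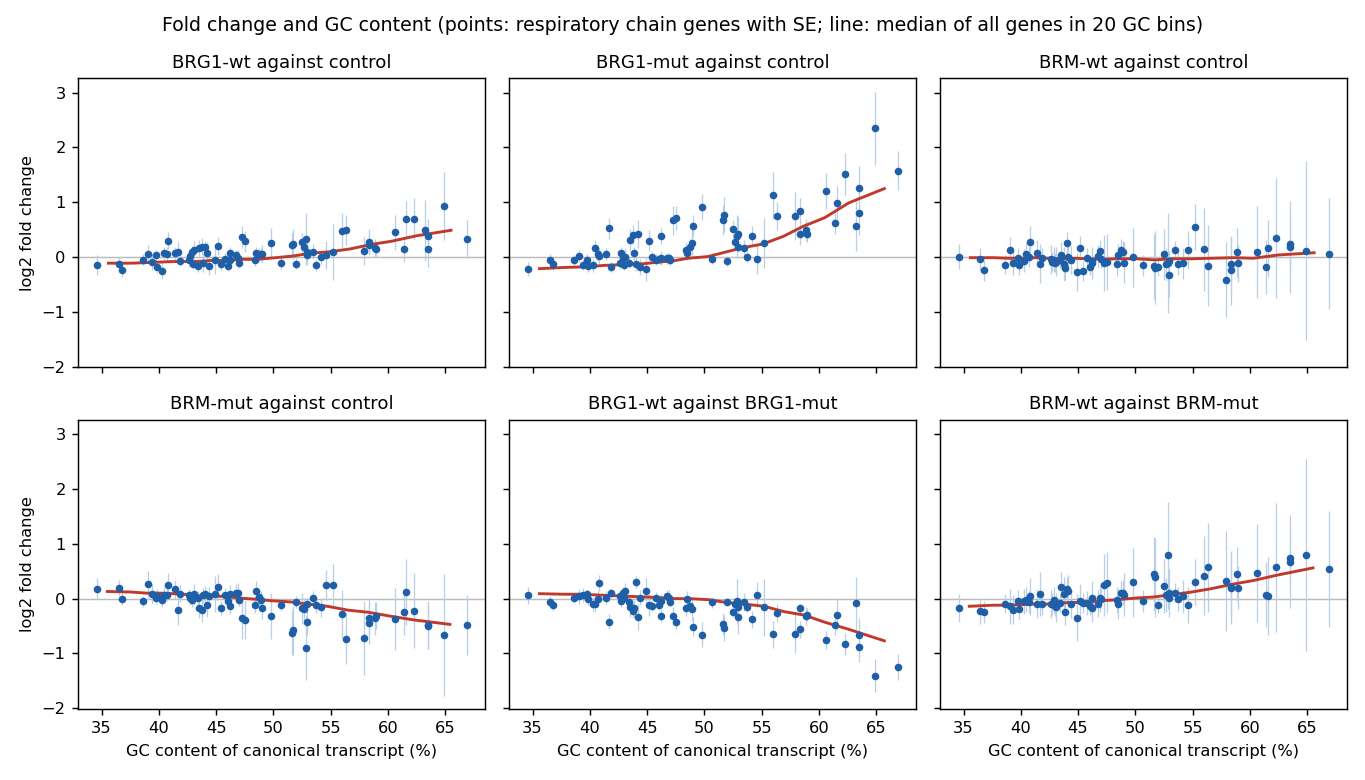
Log2 fold change (vertical axis) of each tested respiratory chain gene, with SE bars, against the GC content of its canonical transcript in percent (horizontal axis) in the 6 comparisons, with the median of all genes in 20 GC bins as a line. Members shared the slope of the line, with 60 of 75 above the median of genes of similar GC content (50 bins) in BRG1-mut against control, and the line rose with GC content there, fell in BRM-mut against control and was nearly flat in BRM-wt against control, where the SE bars were long.

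BRG1-wt against BRG1-mut, which asks what the ATPase activity adds and uses no control library, held the members nearest to the threshold. The median was -0.12 against -0.02 for all genes, and 20 of 75 members were above 0. NDUFS7 was lower in BRG1-wt by a log2 value of -1.25 ± 0.24 with a limma adjusted p of 0.0731, NDUFB7 by -1.41 ± 0.30 with 0.0887, and NDUFV1 by -0.75 ± 0.16 with 0.0892 (SE, n = 2 against 2). NDUFS7 was at 200 and 262 in BRG1-wt and at 667 and 447 in BRG1-mut. NDUFS8, a core subunit with 2 iron-sulphur centres, was at 632 and 797 in BRG1-wt and at 1758 and 966 in BRG1-mut, a log2 fold change of -0.88 ± 0.27 with a limma adjusted p of 0.139. The groups did not overlap for these 4 genes, and none passed the test. All 4 have at least 60% GC, and the correlation with GC content was -0.66 over the members and -0.54 over all genes. At the other end were NDUFC2 at 0.30 ± 0.11, NDUFB3 at 0.28 ± 0.15 and SDHAF4 at 0.13 ± 0.15.

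In BRM-wt the 2 libraries lay on either side of the control for many members. NDUFS8 was at 720 and 406 in the control and at 275 and 1381 in BRM-wt, and NDUFV1 was at 953 and 4679 in BRM-wt. The fitted changes were small beside their errors: 0.10 ± 0.84 for NDUFV1 and 0.12 ± 1.64 for NDUFB7. The 95% interval for NDUFB7 ran from -4.20 to 4.45 on the log2 scale. The median of the members was -0.05 against -0.02 for all genes, and 27 of 74 were above 0. The largest were NDUFA11 at 0.35 ± 1.09, NDUFB3 at 0.28 ± 0.29 and NDUFC2 at 0.26 ± 0.20, and the smallest COX8A at -0.41 ± 0.68, COX6A1 at -0.33 ± 0.39 and COX5A at -0.25 ± 0.18. NDUFA7, below a mean of 100, was at 0.55 ± 0.42. COX5A was at 3685 and 3947 in the control and at 3009 and 3431 in BRM-wt, without overlap. Only 45 of 74 members had a 95% interval within a 2-fold change.

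BRM-mut showed the opposite slope to BRG1-mut with GC content, at -0.60 over 74 members and -0.63 over all genes. The median of the members was -0.05 against -0.01 for all genes. The smallest values were NDUFAF3 at -0.73 ± 0.46, COX8A at -0.72 ± 0.67 and NDUFB7 at -0.66 ± 1.11, and the largest UQCRB, a complex III subunit, at 0.26 ± 0.25, NDUFB8 at 0.25 ± 0.28 and NDUFB3 at 0.25 ± 0.21. UQCR11, below a mean of 100, was at -0.9 ± 0.59. COX8A was at 671 and 448 in the control and at 639 and 172 in BRM-mut. Library b was the low one for NDUFAF3, COX8A and NDUFB7, and it was also low for GC-rich genes in general. BRM-wt against BRM-mut had a median of 0.02, with 39 of 74 members above 0. Among members with a mean of at least 100, NDUFB7 was at 0.79 ± 1.75, NDUFS8 at 0.67 ± 0.85 and NDUFA11 at 0.57 ± 1.17. At the lower end were NDUFV2 at -0.35 ± 0.43, NDUFAF2 at -0.25 ± 0.23 and SDHAF3 at -0.24 ± 0.20. No member of either comparison reached a limma adjusted p below 0.987.

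Of the complex II subunits, SDHB, SDHC and SDHD varied little between libraries and SDHA varied more. SDHB was at 8209 and 8118 in the control, 7626 and 6940 in BRG1-wt, 7927 and 7915 in BRG1-mut, 7097 and 7329 in BRM-wt and 8120 and 7655 in BRM-mut, a range of 1.18-fold. Its 95% interval ran from -0.40 to 0.07 in BRG1-wt and from -0.25 to 0.16 in BRG1-mut. SDHC ranged 1.43-fold and SDHD 1.26-fold over the 10 libraries. SDHA, the flavoprotein subunit that oxidises succinate, ranged 2.31-fold, from 2912 in BRM-wt library a to 6741 in BRM-wt library b. Among 71 members with a mean of at least 100 the median range was 1.54-fold, 34 stayed below 1.5-fold and 26 exceeded 2-fold, and the median over 11963 genes of that level was 1.52-fold.

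A count of members whose 2 groups did not overlap was read against the share of all genes tested. In BRG1-wt against the control 10 of 75 members were higher in both libraries and 10 lower, where all genes gave 17.6% and 20%. In BRG1-mut 31 of 75 were higher and 14 lower, against 31% and 26.4% of all genes. The member shares were 41.3% and 18.7%. In BRM-wt 3 of 74 were higher and 10 lower, against 9.53% and 9.19%, and in BRM-mut 3 and 7 of 74, against 10.4% and 8.85%. For BRG1-wt against BRG1-mut 4 of 75 were higher and 30 lower, against 19.5% and 29.4%, and for BRM-wt against BRM-mut 5 and 6 of 74, against 9.26% and 9.89%. The ribosomal protein genes gave 39 higher and 6 lower of 77 in BRG1-mut against the control. The 4 comparisons with the control share its 2 libraries, and control library b was low for GC-rich genes.

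The members took 0.432 to 0.543% of all counts per library, lowest in BRM-wt library a and highest in BRG1-mut library a. The 13 protein genes of mitochondrial DNA took 5.05 to 6.11%. They encode further subunits of complexes I, III and IV and part of ATP synthase. Their median log2 fold change was -0.06 in BRG1-wt, -0.10 in BRG1-mut, -0.01 in BRM-wt and 0.07 in BRM-mut, and none passed against the control. A single mitochondrial gene passed in BRG1-wt against BRG1-mut. It was MT-ND6, a complex I subunit and the only protein encoded on the light strand, at 1.03 ± 0.15 with a limma adjusted p of 0.0319. In that comparison 0.841% of all genes were called higher. Against the control MT-ND6 was at -0.8 ± 0.23 in BRG1-mut and at 1.05 ± 0.6 in BRM-wt. The 20 ATP synthase genes had medians of 0.03 in BRG1-wt and 0.09 in BRG1-mut, while BRM-wt gave -0.01 and BRM-mut -0.02, and none passed the threshold. Their lowest limma p in BRG1-mut was that of ATP5F1D at 1.95 ± 0.48 with an adjusted p of 0.293. Medians in BRG1-mut were 0.00 for the complex IV assembly genes, 0.00 for citrate cycle genes, 0.19 for complex III assembly genes, 0.16 for other complex I assembly genes and 0.00 for the regulators. None of 21 complex IV assembly genes, 14 citrate cycle genes, 6 complex III assembly genes, 6 other complex I assembly genes or 13 regulators such as TFAM and POLRMT passed in any of the 6 comparisons. TFAM, which packages mitochondrial DNA and starts its transcription, was at -0.25 in BRG1-wt with a limma adjusted p of 0.719, and CYC1 and CYCS, the haem proteins of complex III and cytochrome c, did not pass either.

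The splicing tables list exons whose inclusion differed between an ATPase library and the control with the matching replicate number, past the authors' Bayes factor threshold. Inclusion is given as percent spliced in (PSI), here a fraction from 0 to 1. Members held 27 listings, of 16 distinct exons in 12 genes. The share of the 74 expressed members with a listed exon was 5.41% in BRG1-wt, 8.11% in BRG1-mut, 6.76% in BRM-wt and 5.41% in BRM-mut, against 5.75%, 7.11%, 8.85% and 5.91% of 12651 expressed protein-coding genes. These shares were near the background. Of the listings, 16 were lower than the control and 11 higher, and 7 differed by at least 0.2. Exons not listed may have been tested or not, and the read support of a PSI is unknown here.

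Exons of 3 genes show the kinds of event, read 5′ to 3′ on the transcript strand from GRCh37. The NDUFA11 exon at chr19:5901346-5901465 on the minus strand has 120 bases, is coding in no annotated transcript, and was the exon listed in the most tables. The SDHD exon at chr11:111959591-111959735 on the plus strand has 145 bases and is coding exon 3 of the canonical transcript, and the 7 bases in capitals are missing from a shorter form of 138 bases. The NDUFB5 exon at chr3:179333771-179333837 on the plus strand has 67 bases and is coding exon 3 of the canonical transcript, so that its skipping shifts the reading frame.
NDUFA11: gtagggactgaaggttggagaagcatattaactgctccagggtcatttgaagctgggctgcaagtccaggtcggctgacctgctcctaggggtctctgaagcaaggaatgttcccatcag
SDHD: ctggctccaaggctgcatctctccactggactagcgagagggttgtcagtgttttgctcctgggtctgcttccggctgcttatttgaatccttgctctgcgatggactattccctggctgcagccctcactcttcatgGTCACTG
NDUFB5: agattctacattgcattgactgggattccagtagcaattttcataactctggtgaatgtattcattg

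The whole NDUFA11 gene had 144 and 66 reads in control libraries a and b. Inclusion of its listed exon was lower in each listing of a BRG1 form, and the replicate 1 listings of both forms share a control library. In BRG1-mut it went from a PSI of 0.18 to 0.09 in replicate 1 and from 0.13 to 0.07 in replicate 2, and in BRG1-wt from 0.18 to 0.10 in replicate 1. In BRM-wt replicate 2 it was higher, at 0.23 against 0.13. It was the only exon of a member listed with the same direction in both replicates of a group, and it was not listed in the second BRG1-wt replicate.

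NDUFV1 had overlapping exon forms that end at the same base, chr11:67374837-67375087 with 251 bases and chr11:67374770-67375087 with 318 bases on the plus strand, both coding in no annotated transcript. The 251-base form went from 0.19 to 0.07 in BRG1-mut replicate 1 and from 0.19 to 0.06 in BRM-wt replicate 1, but from 0.08 to 0.37 in BRM-wt replicate 2. The 318-base form went from 0.22 to 0.08 in those replicate 1 libraries and from 0.10 to 0.40 in BRM-wt replicate 2. The BRM-wt replicates thus moved in opposite directions for both forms. They share bases and are not independent.

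The widest difference was in NDUFS8, where an exon of 178 bases at chr11:67799000-67799177 on the plus strand went from 0.66 to 0.09 in BRG1-mut replicate 2. This exon is not in the canonical transcript and overlaps an annotated UTR of the gene. NDUFAF6 on chromosome 8 followed, with a 57-base coding exon of the canonical transcript going from 0.60 to 0.95 in BRG1-mut replicate 1. A 115-base exon of NDUFAF6 went from 0.52 to 0.79 in BRG1-mut and to 0.76 in BRM-mut, both in replicate 2 and against the same control value. The NDUFB5 exon went from 0.42 to 0.14 in BRG1-wt replicate 1. None of these was listed in the other replicate of its group.

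COX7A2, whose exon of 109 bases lies at chr6:75949993-75950101 on the minus strand, was at 0.99 in replicate 1 of BRM-wt and of both BRG1 groups, against 0.91 in the control library they share. The 138-base form of the SDHD exon went from 0.14 to 0.19 in BRG1-wt replicate 1 and from 0.19 to 0.12 in BRM-mut replicate 2, and the 145-base form from 0.53 to 0.41 in BRM-mut replicate 2. NDUFAF5 went from 0.13 to 0.03 and UQCRQ, a complex III subunit, from 0.99 to 0.98 in BRM-wt replicate 2. In BRM-mut replicate 2 NDUFAF7 went from 0.93 to 0.99 and NDUFA10 from 1 to 0.95, and in BRG1-mut replicate 2 the UQCRB forms went from 0.15 to 0.11 and from 0.17 to 0.14. No test of a single exon was run, and an exact permutation test of 2 replicates against 2 cannot give a two-sided p below 0.333.

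**Figure D4:**
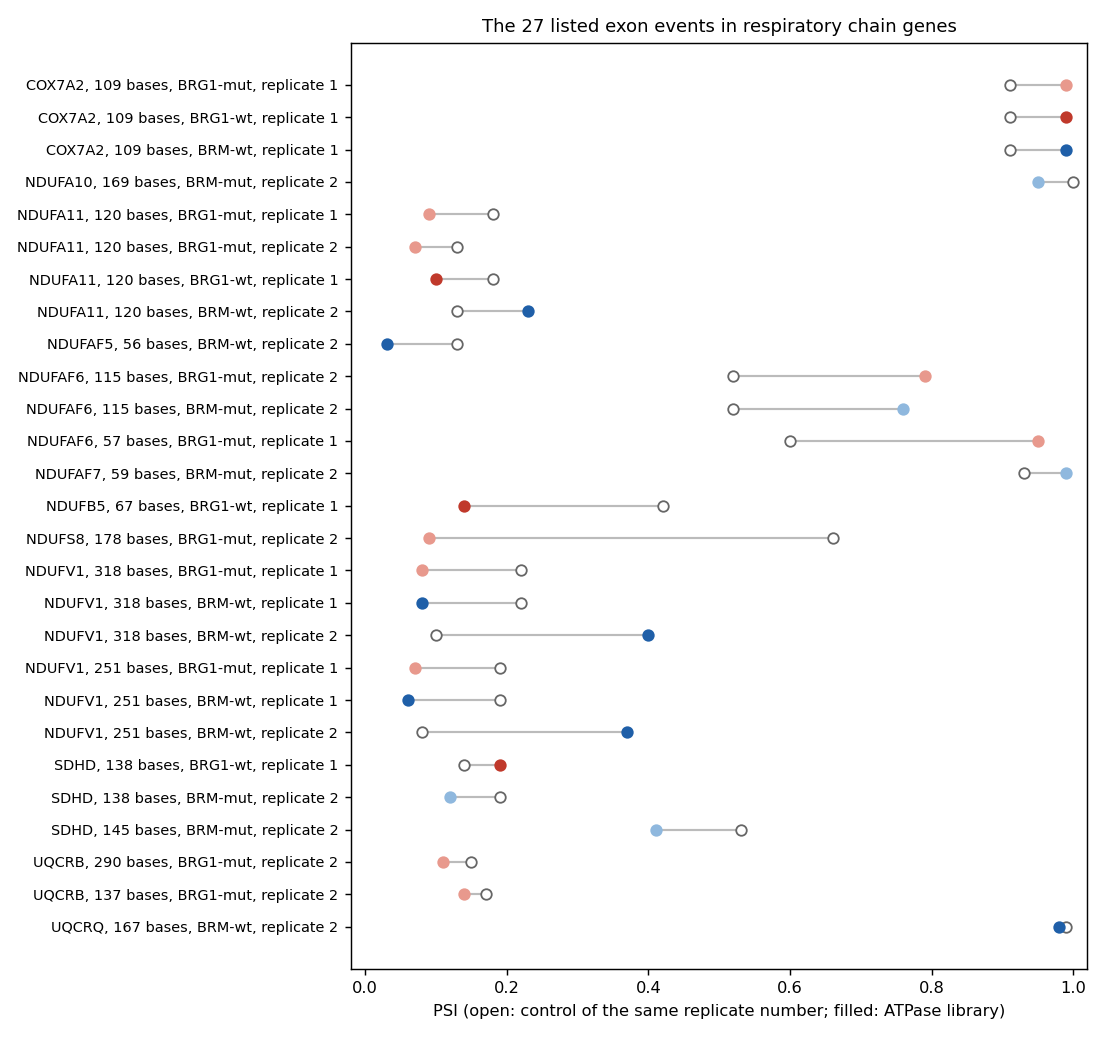
PSI (0 to 1, horizontal axis) of the 27 listings in respiratory chain genes, a row for each exon, group and replicate, with its control as an open point and the ATPase library as a filled point coloured by group. The NDUFA11 exon was lower in the 3 BRG1 rows and higher in the BRM-wt row, and the NDUFV1 forms were lower in replicate 1 and higher in replicate 2 of BRM-wt.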

How the data were processed

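RNA-seq of 10 C33A libraries, 2 in each of 5 groups, was mapped by the authors with TopHat2 2.0.4 to GRCh37 and counted with HTSeq 0.6.1. The deposited expression tables compare each ATPase group with the control. Their second column, a signal as deposited by the authors, is the mean over 4 libraries of counts divided by size factors. Their other columns hold the authors' fold changes, errors and p-values, and were not used. The deposited MISO tables give PSI as a fraction for the control and the ATPase library, and the Bayes factors, log2 ratios and direction flags in them were not used. An unused table was a byte-identical copy.

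Whole counts were recovered by lattice reduction from the means, which carry 15 digits and share the control libraries. All 32119 genes above 0 were solved, the largest misfit being 0.833 of the rounding allowed. Recovered libraries carry no replicate number. Because the deposited values are means and not counts, limma 3.58.1 in R 4.3.3 was used, with a trend on log2(normalised count + 1), a mean of at least 10 and Benjamini-Hochberg adjustment over all genes. The threshold was 0.05. The recovery and the fits were tested on simulated data. The simulation for the fits held no shift of GC-rich genes between libraries, unlike the real libraries.

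Exons, lengths and GC content came from GENCODE v44 lifted to GRCh37, which matched 30847 of the 32119 genes. An exon was assigned to the gene whose span and strand hold it. Named genes were the 5 highest and 5 lowest per kb, the 3 largest and 3 smallest changes with a mean of at least 100 in each comparison, those with an event, the isoform pairs and SDHA to SDHD. The genes discussed for shared exons were also given values outside that rule, after their values were seen, as were the 55% and 45% GC and the 1000-base limits. The members and lists were chosen with earlier results of these data known. The alternatives were scaling, pseudocount, filters, voom weights, all libraries in a single fit, GC correction and leaving out each library. The GC correction within each library and levels per canonical transcript were chosen after seeing the data.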

Additional observations from a re-analysis of the deposited data

How the results depend on the processing

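No member passed in the 6 comparisons, and this held under total count scaling, a pseudocount of 8, a minimum of 100, all 10 libraries in 1 fit, voom weights and both GC corrections. Upper quartile scaling gave 5 of 75 members, all higher, in BRG1-mut against control (NDUFA11, NDUFB7, NDUFS7, NDUFS8 and NDUFV1), where 728 of 16360 genes were called higher. In BRG1-wt against BRG1-mut it gave 4 of 75, all lower, where 670 of 16436 genes were called lower. This scaling also moved the median of all genes to -0.11 in BRG1-wt, -0.27 in BRG1-mut, 0.12 in BRG1-wt against BRG1-mut and -0.14 in BRM-wt against BRM-mut. With that shift taken off, the median of the members was 0.06, 0.18, -0.10 and 0.02, and with the shift left in -0.05, -0.09, 0.02 and -0.12. For BRM-mut the median of the members was 0.06 with the shift left in and -0.04 with it taken off, against -0.05 as reported. In BRG1-wt against BRG1-mut, 3 of 79 members (NDUFB7, NDUFS7 and NDUFV1) passed with no filter, all lower, beside 169 of 28910 genes called lower. At a limma adjusted p under 0.1 the same 3 of 75 passed, beside 353 of 16645 genes called lower. Leaving out each library gave 0 to 12 members in BRG1-wt (12 without control library a), 0 to 23 in BRG1-mut (23 without control library a), 0 to 21 in BRG1-wt against BRG1-mut (3 without BRG1-wt library b, 3 without BRG1-mut library a and 21 without BRG1-mut library b) and 0 in the rest. In the same fits, the genes called were 2301 higher and 66 lower in BRG1-wt, 2840 and 13 in BRG1-mut, and 193 and 559, 339 and 159, and 473 and 1750 in BRG1-wt against BRG1-mut. BRG1-wt also gave 401 and 6 without control library b and 19 and 1 without BRG1-wt library b. Without BRM-wt library b, BRM-wt against control gave 152 and 2 and BRM-wt against BRM-mut 38 and 0. A lone library was assumed to vary like the other group. The cause was not tested. Over 59 pairs of a named gene and a comparison, 25 values passed only under an alternative and none reversed. The rest did not pass under their alternative, with 752 classed as the same and 49 as moved. Calls over all genes in BRG1-wt were 78, against 34 with total count scaling, 263 with upper quartile scaling, 120 with no filter, 25 with a minimum of 100, 51 with 10 libraries, 49 with voom and 248 with GC taken off in each library. In BRG1-mut they were 0, against 728 higher and 17 lower with upper quartile scaling. In BRG1-wt against BRG1-mut they were 140 higher and 8 lower, against 596 and 670 with upper quartile scaling, 255 and 169 with no filter, 63 and 0 with a minimum of 100, 21 and 0 with 10 libraries, 92 and 1 with voom, and 350 and 49 with GC taken off in each library. With 10 libraries, BRM-wt against control gave 52 and BRM-wt against BRM-mut 50, against 0 in each.

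The median level over the members was 548 per kb of merged exons, 827 per kb of the longest transcript, 1400 per canonical transcript and 673 with a minimum of 100. The 27 splicing listings became 7 with a difference of at least 0.2 and 12 to 15 without a replicate. There were 3 pairs of an exon and a group listed in both replicates, of which NDUFA11 in BRG1-mut kept its direction and the NDUFV1 forms in BRM-wt did not. No paired analysis was possible because the recovered libraries carry no replicate number. The PSI tables do pair each library with the control of its number, and those differences are given without a test. Counts of 0 allow up to 3 reads in a library.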
